A study of Mus musculus with 10 samples.

Results

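MTΔECad cells received rosiglitazone, which activates the nuclear receptor PPARγ, and the effect was read across the expressed genes by RNA sequencing. MTΔECad cells are a mouse breast cancer line that lacks E-cadherin by gene deletion and that the labels describe as mesenchymal. The comparison used 4 of the 10 libraries of the series, chosen by their labels: 2 of cells with rosiglitazone and 2 of control cells. All were recorded at 7 days, although the titles of these control libraries, unlike those with rosiglitazone, name no day. The libraries of a group came from 2 independent experiments, so n = 2 throughout. The p-values rest on a spread within groups that was estimated over all 10 libraries of the series, with information shared across genes. The general protocol gives rosiglitazone at 2 µM and DMSO medium for control cells, whereas the sample labels carry no dose. That protocol also exposes cancer cells to BMP2 before and during rosiglitazone. The labels of these libraries name rosiglitazone alone, so whether the medium also held BMP2 is not known here. The labels do not say whether the line is 1 clone. The remaining 6 libraries were of Py2T-LT cells, long-term Py2T mouse breast cancer cells, in groups of 2: controls, cells given a MEK inhibitor, and cells given that inhibitor together with BMP2. They entered the fit, and the last of these groups is compared with rosiglitazone at the end.

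PPARγ binds DNA as a partner of the retinoid X receptor at repeats of a short hexamer, and ligand binding lets it recruit coactivators. In the adipocyte lineage it is the main regulator of fat cell formation and turns on genes for fatty acid uptake, triglyceride storage, lipid droplet coats and secreted adipokines. Thiazolidinediones such as rosiglitazone are synthetic ligands of this receptor that raise insulin sensitivity. Related receptors of the PPAR family share many targets in fatty acid oxidation.

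Of 13149 genes tested, 1046 (7.95%) were higher and 691 (5.26%) were lower with rosiglitazone. A gene was called where its p from the quasi-likelihood test of edgeR, after Benjamini-Hochberg adjustment across every gene tested, was under 0.05. Only genes that passed this test are said below to have risen or fallen. Rises were larger than falls: a log2 fold change beyond 1 was seen in 351 rises and 58 falls, and one beyond 3 in 114 rises and 1 fall. The median log2 fold change was 0.68 over the genes that rose, -0.43 over those that fell and -0.02 over all genes tested. In every one of the 1737 called genes the rosiglitazone libraries lay both above or both below the control libraries. This adds little to the calls, because a gene whose groups of 2 overlap would seldom pass the test. The number of falls rested more on single libraries, being 353 without control 1, 415 without control 2 and 421 without rosiglitazone 1. Falls by more than 1 numbered 36 without control 1 and 31 by DESeq2.

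**Figure D1:**
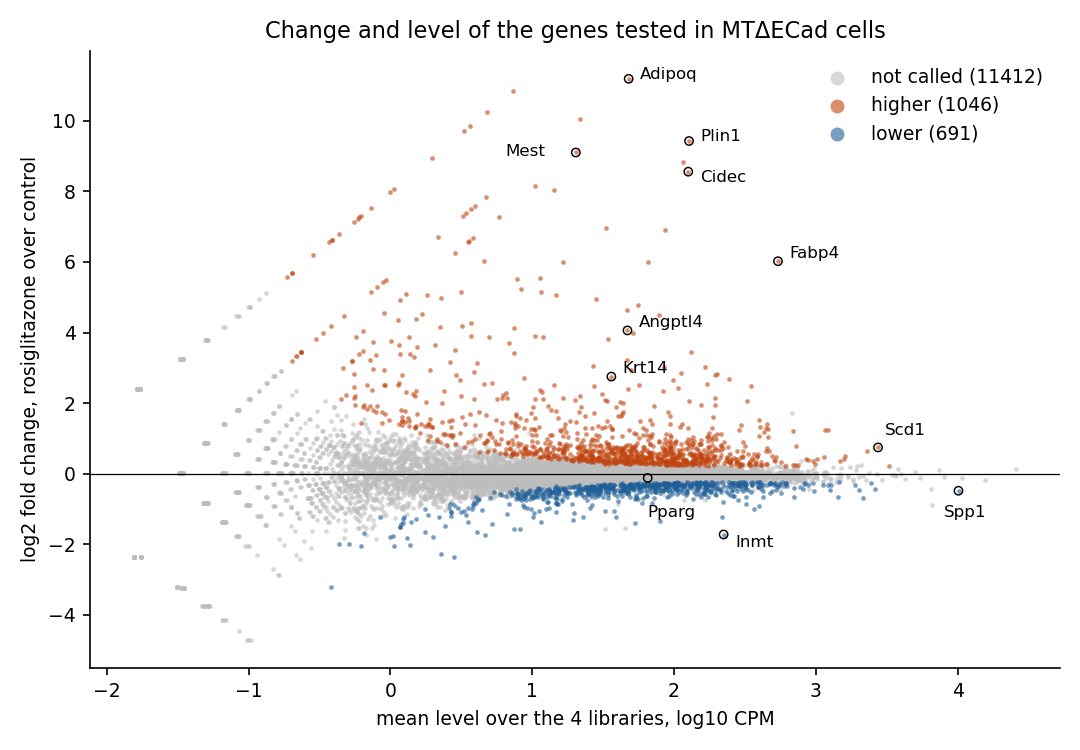
Log2 fold change of rosiglitazone over control (y axis) against the mean level over the 4 MTΔECad libraries in log10 CPM (x axis), with 1 point for each gene tested, coloured by call. Adipoq, Plin1, Cidec and Fabp4 are among the points with the largest rises, falls are smaller, and the diagonal rows of points at low levels are genes with few counts in the controls, whose fitted changes depend on the model's prior count.

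Library totals were 16095783 and 15183412 counts with rosiglitazone and 15347734 and 16796768 in the controls, and levels below are in CPM, the read count scaled to the TMM-adjusted library size, not divided by gene length. The rosiglitazone libraries correlated across genes at 0.9949 and the controls at 0.9947 (Pearson, log2 CPM), against 0.9787 to 0.9803 between the groups. Of 219 genes that rose by more than 1 and reached 5 CPM, 163 (74.4%) were higher in rosiglitazone 1 than in rosiglitazone 2, with a median log2 ratio of 0.11. Among 8646 uncalled genes of that level the share was 49.6%. The part of this difference between the rosiglitazone libraries in the results was not tested. Of the genes named below, Nr1h3, Thra, Srebf1, Plin4, Pcx, Pex11a, Gpat3, Rarres2, Aifm2, Angptl2, Erap1, Ccnd1 and Cdk4, among others, overlap another annotated protein-coding gene. Their levels are uncertain to the extent that the counting divided shared reads.

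The libraries carried the RNA of a mesenchymal line. Vim, the intermediate filament gene of mesenchymal cells, stood at 5390 and 5000 CPM with rosiglitazone and 5853 and 5548 CPM in the controls, and it was not called (log2 fold change -0.13 ± 0.08, adjusted p = 0.37). Zeb1, a repressor of epithelial genes, stood at 189 and 184 against 192 and 182 CPM and was not called. Cdh1, which encodes E-cadherin, gave 3.02 and 4.61 CPM with rosiglitazone and 2.58 and 2.25 CPM in the controls (0.66 ± 0.25, adjusted p = 0.089). Reads from outside the deleted exons would give such a level, so it does not check the deletion. Cdh1 passed the test without the filter on low counts (adjusted p = 0.037) and without rosiglitazone 1 (0.021). Defining markers of other cells were at or near 0 in these 4 libraries: Itgam, Cd52, Cd4, Hba-a1 and Emcn had 0 counts. Over the 12 haematopoietic markers with a row, the summed level was 5.05 and 5.23 CPM with rosiglitazone and 7.73 and 8.70 CPM in the controls. In each of the 4 libraries most of it came from Cd68, whose highest value was 6.39 CPM. Cd68 was lower by log2 fold change (-0.58 ± 0.21) but not called, and it passed the test without the count filter (adjusted p = 0.045). Its part in the results was not tested. Summed endothelial markers reached at most 2.58 CPM and skeletal muscle markers 4.26 CPM. Nerve and glia markers summed to between 41.3 and 46.1 CPM, mostly Map2, which was not called (-0.05 ± 0.14). In whole cultures such as these, fewer cells with a transcript and less of it per cell cannot be told apart.

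**Figure D2:**
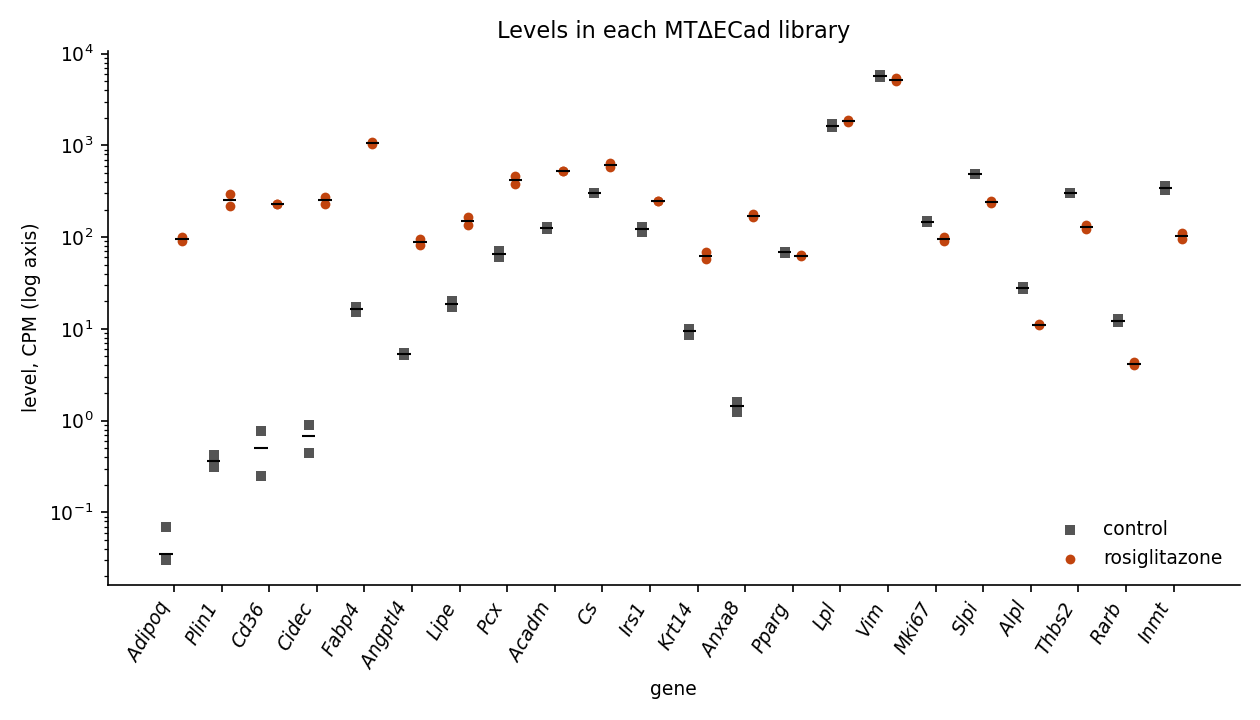
Level in CPM (log axis) of 22 genes in each control library (grey squares) and each rosiglitazone library (red circles), with group means as black bars; the control of Adipoq with 0 counts is drawn at 0.03 CPM. Adipoq, Plin1, Cd36 and Cidec stand below 1 CPM in both controls and at 90 CPM or more in both rosiglitazone libraries, whereas Pparg, Lpl and Vim were not called and Slpi, Alpl, Thbs2, Rarb and Inmt are lower.

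The receptor's own gene did not rise. Pparg (chr6:115360879-115490404 of GRCm38) stood at 63.2 and 61.8 CPM with rosiglitazone and 68.8 and 67.3 CPM in the controls, a log2 fold change of -0.12 ± 0.09 with an adjusted p of 0.5. Its transcript was therefore present in the cells without the drug. Of 27 nuclear receptor genes tested, 6 rose and 3 fell, with a median log2 fold change of 0.05. Rxra, the retinoid X receptor that pairs with PPARγ, rose from 72.3 and 65.5 to 128 and 116 CPM (0.82 ± 0.08, adjusted p = 2e-07). Nr1h3, the liver X receptor LXRα that senses oxysterols, rose by 2.31 ± 0.19, from 3.48 and 4.38 to 21.2 and 18.1 CPM. Thrb, a thyroid hormone receptor, had 4 counts in the controls and stood at 10.9 (95% interval 3.98 to 42.0) times their level with rosiglitazone, a ratio of counts scaled to the libraries. Such intervals here are exact 95% conditional intervals and cover counting error only. Nr4a1 rose by 0.51 ± 0.13 and the thyroid hormone receptor Thra by 0.42 ± 0.09; the call of Nr4a1 was lost without rosiglitazone 2 (adjusted p = 0.097) and without control 1 (0.17). Falls were in the retinoic acid receptors Rarb and Rarg and the vitamin D receptor Vdr. Rarg (-0.47 ± 0.08), Vdr (-0.38 ± 0.08) and Thra were chosen for the text after their values were seen.

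Most of the listed transcription factors of fat cell formation were not called. Of 20 tested, 3 rose and none fell at the threshold, with a median log2 fold change of 0.11. The share that rose was above the 7.95% over all genes tested, but it rests on these 3 genes. Cebpa, which keeps PPARγ expressed in adipocytes, stood at 107 and 99.3 CPM with rosiglitazone and 51.02 and 57.8 CPM in the controls (0.92 ± 0.13, adjusted p = 0.00013). Zfp423, a preadipocyte zinc finger factor, rose from 9.74 and 7.89 to 19.6 and 18.02 CPM (1.10 ± 0.21). Srebf1, a driver of fatty acid synthesis genes, rose by 0.48 ± 0.10, but its call was lost without control 2 (adjusted p = 0.062). Cebpb, which acts early in adipogenesis, stood at 216 and 217 against 185 and 229.5 CPM (0.06 ± 0.14, adjusted p = 0.86), where the groups overlap.

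Genes of the fat cell's lipid droplet were among those with large rises. Of 17 lipid droplet genes tested, 11 rose and none fell, with a median log2 fold change of 0.79 against -0.02 over all genes. Plin1 (chr7:79721164-79732904), the perilipin that coats the droplets of white fat cells and gates lipolysis, stood at 293 and 217 CPM with rosiglitazone and at 0.418 and 0.313 CPM in the controls. That is a log2 fold change of 9.43 ± 0.25 (adjusted p = 1.6e-12). Cidec (chr6:113424634-113435760), which fuses droplets into larger ones, went from 0.905 and 0.438 to 275 and 228 CPM (8.56 ± 0.25). The lowest rosiglitazone library was above the highest control by 2 orders of magnitude or more in both genes. Plin5, a perilipin of oxidative tissues, and Cidea, a droplet protein of brown fat, had 0 counts in both controls. Against a floor of 3 counts in each control library they were at least 9.95-fold and 3.702-fold higher, at 2.29 and 1.65 and at 0.918 and 0.5502 CPM with rosiglitazone. G0s2, an inhibitor of triglyceride lipase, had 2 counts in the controls and stood at 108 (95% interval 29.5 to 897) times their level. Plin4 and Plin2, perilipins already abundant in the controls, rose by 1.23 ± 0.08 and 1.08 ± 0.09, with Plin2 at 566 and 521 against 256 and 259.7 CPM.

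Genes of fatty acid entry rose in part. Of 17 tested, 5 rose and 2 fell, with a median of 0.18. Cd36 (chr5:17781690-17888959), a fatty acid translocase of the cell surface, stood at 229 and 230.2 CPM with rosiglitazone and 0.766 and 0.2504 CPM in the controls (8.84 ± 0.20, adjusted p = 2.2e-16). Fabp4 (chr3:10204342-10208616), the fatty acid carrier of fat cells, went from 17.5 and 15.4 to 1092 and 1039 CPM (6.02 ± 0.16). Acsl1, which activates fatty acids with coenzyme A, rose by 2.49 ± 0.08 and the carrier gene Fabp5 by 1.57 ± 0.13. The acyl-CoA binding gene Dbi also rose (0.39 ± 0.07). Among the paralogs of Acsl1, Acsl4 fell (-0.48 ± 0.09), at 334 and 376 against 481 and 507 CPM, and Acsl5 fell by a smaller amount (-0.24 ± 0.07). Dbi and Acsl5 were named after their values were seen, and the number of falls was 1 when any single one of the 4 libraries was left out. Lpl, lipoprotein lipase, stood at 1914 and 1793 CPM with rosiglitazone and 1707 and 1572 CPM in the controls and did not pass the test (0.18 ± 0.08, adjusted p = 0.2).

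Genes of both the building and the breakdown of triglyceride rose. Of 22 genes of triglyceride synthesis and glycerol supply, 12 rose, with a median of 0.55. Aqp7, a glycerol channel, and Pck1, which makes glycerol phosphate from pyruvate in fat cells, had 0 counts in the controls. Aqp7 stood at 7.804 and 6.67 CPM with rosiglitazone and was at least 36.5-fold higher, and Pck1 stood at 6.75 and 6.46 CPM and was at least 33.3-fold higher. The acyltransferase genes Gpat3, Agpat2 and Dgat2, which add acyl chains to the glycerol backbone in turn, rose by 2.94 ± 0.11, 2.54 ± 0.10 and 2.36 ± 0.17. Gpd1, which makes glycerol phosphate from a glycolytic intermediate, rose from 29.2 and 25.4 to 204 and 188 CPM (2.84 ± 0.21). Of 14 lipolysis genes 6 rose and none fell, with a median of 1.30. Pnpla2, the lipase that opens triglyceride breakdown, rose from 53.4 and 45.1 to 384 and 299 CPM (2.80 ± 0.13, adjusted p = 4.3e-10). Lipe, the hormone-sensitive lipase that follows it, rose from 17.1 and 20.1 to 168 and 135 CPM (3.02 ± 0.13, adjusted p = 9.2e-13). The 1 fall in the synthesis list was in Pck2, the mitochondrial counterpart of Pck1 (-0.27 ± 0.08), named after its value was seen. Its call was lost by DESeq2 (adjusted p = 0.055), without rosiglitazone 1 (0.067), without rosiglitazone 2 (0.22), without control 1 (0.11) and without control 2 (0.21).

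Secreted factors of fat cells followed. Of 21 adipokine and complement genes tested, 11 rose and 1 fell, with a median of 0.49. Adipoq (chr16:23146536-23157968), the insulin-sensitising hormone adiponectin, stood at 102 and 90.02 CPM with rosiglitazone, while the controls held 1 count in all. Cfd (chr10:79890853-79892655), complement factor D or adipsin, stood at 45.5 and 41.8 CPM, and its controls likewise held 1 count. Adipoq stood at 2910 (95% interval 522 to 114978) and Cfd at 1326 (95% interval 238 to 52420) times the control level. Rarres2, the chemoattractant chemerin, stood at 7.28 and 6.396 CPM with 1 count in the controls. Angptl4, an inhibitor of lipoprotein lipase and a well-known PPAR target, rose from 5.15 and 5.45 to 95.9 and 81.4 CPM (4.06 ± 0.13, adjusted p = 3.1e-15). C3, the central complement component, rose by 2.09 ± 0.15. The 1 fall was in Angptl2, an angiopoietin-like factor, at 566 and 517 against 893 and 830.1 CPM (-0.67 ± 0.08).

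Promoter sequence was examined because so many PPAR target genes moved together. RefSeq promoters of GRCm38.p6, from 250 bases before to 50 bases after each start, were matched by gene identifier. This gave promoters for 10358 of the tested genes, among them 818 that rose and 539 that fell. The classical PPAR response element, 2 copies of AGGTCA in the same direction with 1 base of any kind between them, was sought on both strands. So was a relaxed form with AGGNCA in both copies, which includes the strict one. The strict form was in 13 of all 27025 promoters (0.0481%) and in 1 of the 818 of genes that rose. The relaxed form was in 0.451% of all promoters, in 0.270% of those tested, in 4 of 818 (0.489%) of genes that rose and in 1 of 539 (0.186%) of genes that fell. Those 5 stretches are shown on the gene's strand, with the match in capitals.
Isca1: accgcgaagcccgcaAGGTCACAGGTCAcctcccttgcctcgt
Ccl6: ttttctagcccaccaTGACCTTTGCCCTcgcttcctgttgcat
Lctl: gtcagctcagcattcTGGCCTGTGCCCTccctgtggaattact
Slc13a4: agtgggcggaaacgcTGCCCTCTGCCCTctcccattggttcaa
Csgalnact2: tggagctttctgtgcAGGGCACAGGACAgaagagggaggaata
They lie at chr13:59769896-59769938, chr11:83593148-83593190, chr9:64117094-64117136, chr6:35308187-35308229 and chr6:118139320-118139362. These genes were named for the match alone. Isca1, an iron-sulphur cluster assembly gene, rose by 0.36 ± 0.10, a call lost by DESeq2 (adjusted p = 0.072), without rosiglitazone 1 (0.094), without rosiglitazone 2 (0.14), without control 1 (0.17) and without control 2 (0.094). Lctl, a lactase-like gene, rose by 0.78 ± 0.11. Ccl6, a chemokine, rose from 0.348 and 0.626 to 2.43 and 2.34 CPM, and Slc13a4, a sulphate transporter with 0 counts in the controls, stood at 0.787 and 0.756 CPM. Csgalnact2, an enzyme of chondroitin sulphate synthesis, fell (-0.31 ± 0.09), a call lost without rosiglitazone 1 (adjusted p = 0.26) and without control 2 (0.21).

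The windows of Adipoq and Plin1 held neither form. The 150 bases before the RefSeq start of Adipoq (chr16:23146386-23146535) and of Plin1 (chr7:79732777-79732926) are given because these genes lead the response; most of the Plin1 stretch lies inside the annotated gene, which reaches 79732904.
Adipoq: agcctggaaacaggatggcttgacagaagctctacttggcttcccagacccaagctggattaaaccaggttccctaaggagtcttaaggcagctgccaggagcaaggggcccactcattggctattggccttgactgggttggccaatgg
Plin1: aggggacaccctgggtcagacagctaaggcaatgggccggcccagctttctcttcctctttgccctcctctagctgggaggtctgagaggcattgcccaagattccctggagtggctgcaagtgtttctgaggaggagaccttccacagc
Neither stretch holds even a single AGGTCA on either strand. This says that these letters are not in the window and nothing of binding elsewhere.

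Most genes of fatty acid oxidation rose. Of 29 genes of mitochondrial fatty acid oxidation, 23 rose (79.3%) and none fell, with a median log2 fold change of 0.62. Acadm, the medium-chain acyl-CoA dehydrogenase, rose from 124 and 129 to 530.2 and 520.2 CPM (2.05 ± 0.08, adjusted p = 2.3e-14). Cpt1a, which commits fatty acids to the mitochondrion, rose from 92.6 and 87.5 to 180.2 and 169 CPM (0.96 ± 0.07). Ech1 and Eci1, which handle unsaturated chains, rose by 1.29 ± 0.08 and 1.12 ± 0.09, and Acadvl, the very-long-chain dehydrogenase, by 0.76 ± 0.08. Of 28 peroxisomal genes 17 rose and none fell, with a median of 0.58. Ephx2, an epoxide hydrolase of the peroxisome and cytosol, rose from 0.418 and 0.626 to 70.04 and 62.4 CPM (6.95 ± 0.19, adjusted p = 3.3e-16). Ehhadh and Pex11a, the latter for peroxisome division, rose by 2.07 ± 0.14 and 1.88 ± 0.18, and catalase (Cat) by 1.38 ± 0.08. Acaa1b rose by 4.96 ± 0.32, and its near-identical paralog Acaa1a may share reads with it.

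Most genes of the respiratory chain and the citric acid cycle rose as well, with lower medians than the oxidation genes. Of 46 nuclear-encoded respiratory chain subunits, 41 (89.1%) rose and none fell, and the log2 fold change was above 0 in all 46. The median was 0.43 and the range 0.12 to 1.26. The largest was that of Cycs, cytochrome c, at 12.7 and 16.4 CPM with rosiglitazone and 5.43 and 6.63 CPM in the controls (1.26 ± 0.17). Cox6b1 and Ndufv1, subunits of complexes IV and I, rose by 0.64 ± 0.07 and 0.63 ± 0.09. The number that rose was 29 to 33 with 1 library left out, 38 by DESeq2 and 43 with the 4 MTΔECad libraries fitted alone. Of 28 genes of the citric acid cycle and pyruvate entry, with a median of 0.45, 18 rose and 1, the kinase gene Pdk3, fell (-0.32 ± 0.09). Pdk3 was named after its value was seen, and its call was lost by DESeq2 and without any single one of the 4 libraries. Pcx, pyruvate carboxylase, rose from 69.8 and 60.5 to 466 and 378 CPM (2.70 ± 0.11, adjusted p = 2.1e-11). Cs, citrate synthase, rose from 302 and 301 to 648 and 583 CPM (1.03 ± 0.08), and Idh3a and Aco1 rose by 1.06 ± 0.08 and 1.12 ± 0.08.

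Several brown and beige fat genes rose, and the one that defines brown fat was not detected. Ucp1, the uncoupling protein of brown fat, had 0 counts in all 4 libraries. Of 15 such genes tested, 8 rose and 2 fell, with a median of 0.55. Ppargc1a, the coactivator PGC-1α, rose from 6.96 and 5.76 to 14.1 and 17.8 CPM (1.33 ± 0.15, adjusted p = 1.5e-06). Cox8b, a cytochrome oxidase subunit of muscle and brown fat, stood at 7.87 and 6.81 CPM with 1 count in the controls. Ucp3 rose from 0.418 and 0.501 to 6.099 and 4.47 CPM. The falls were in Tnfrsf9 (-1.05 ± 0.11), used as a beige marker, and the nucleoside transporter Slc29a1 (-0.53 ± 0.08), both named after their values were seen.

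**Figure D3:**
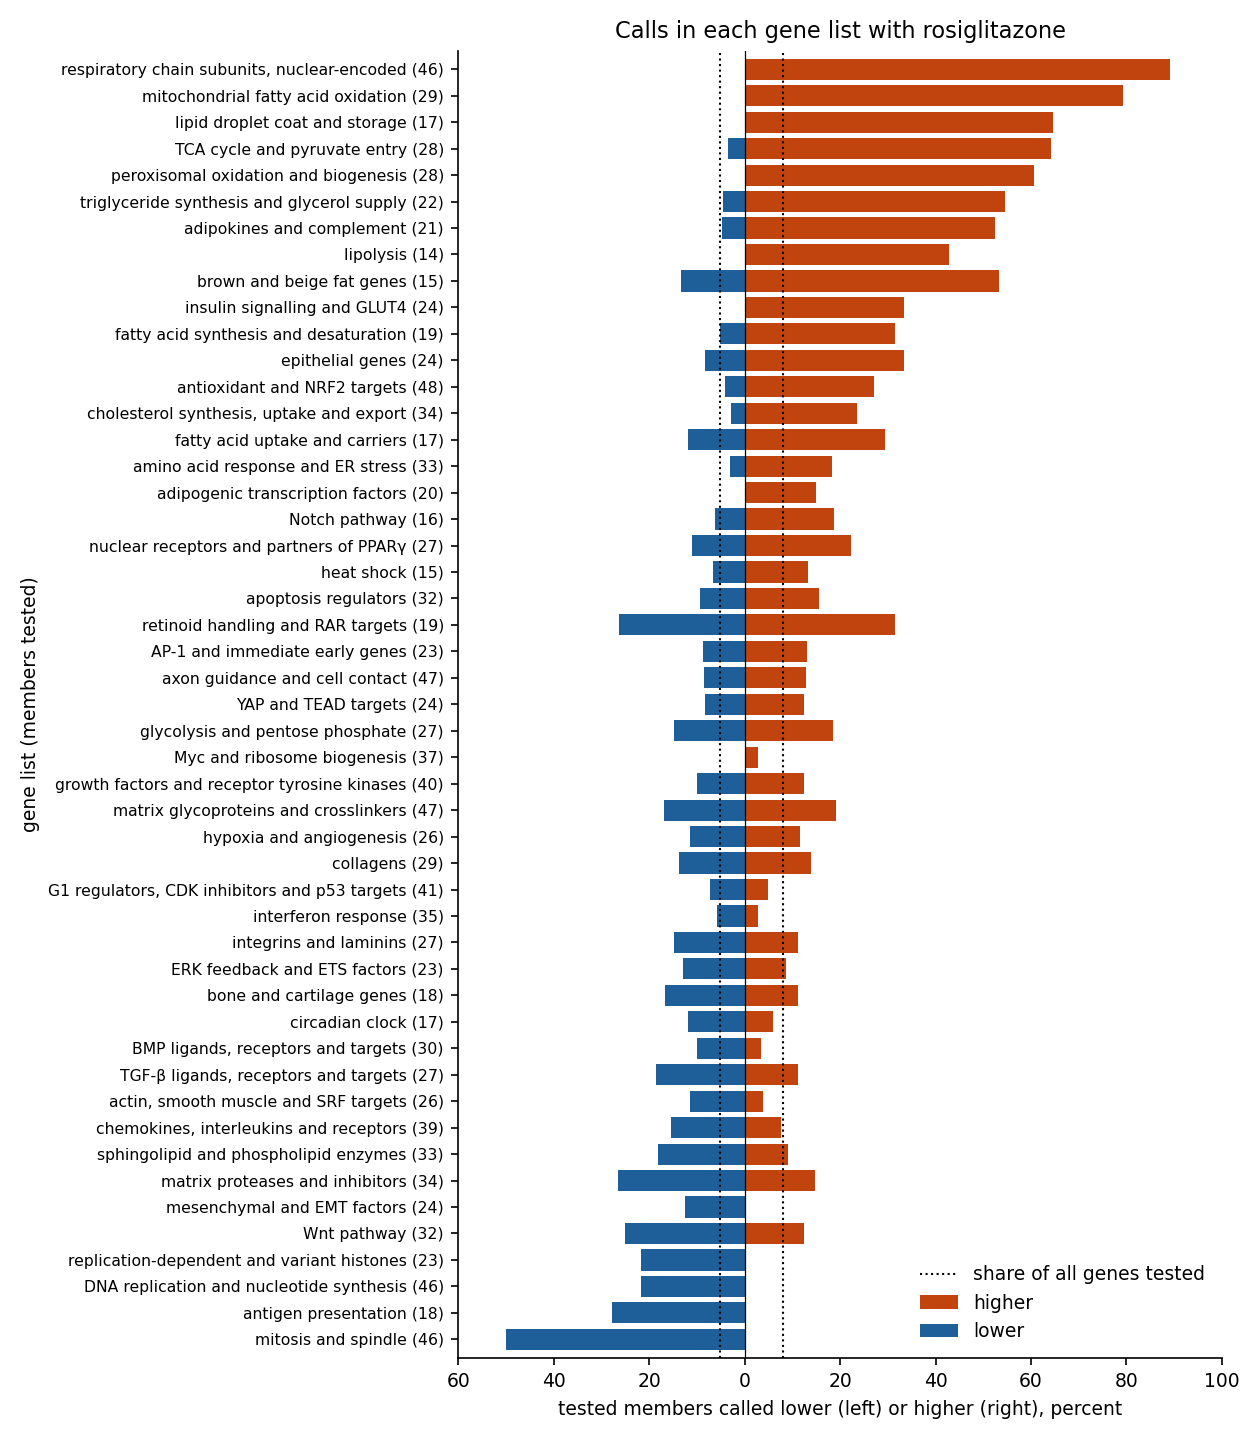
Share of the tested members of each gene list that were lower (blue, to the left) or higher (red, to the right) with rosiglitazone, in percent; the number tested is in brackets and dotted lines mark the shares over all genes tested, 5.26% and 7.95%. Respiratory chain, fatty acid oxidation and lipid droplet lists reach furthest to the right, and the mitosis and spindle list reaches furthest to the left.

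Insulin signalling genes rose in part. Of 24 tested, 8 rose and none fell, with a median of 0.34. Irs1 and Irs2, the docking proteins of the receptor, rose by 1.02 ± 0.08 and 1.06 ± 0.15, with Irs1 at 246 and 246 against 128 and 115 CPM. Igf1, insulin-like growth factor 1, rose from 36.05 and 34.7 to 83.95 and 88.99 CPM (1.29 ± 0.09). Slc2a4, the insulin-responsive glucose transporter GLUT4, stood at 1.11 and 0.481 CPM with rosiglitazone and 0.418 and 0.313 CPM in the controls. It did not pass the test (adjusted p = 0.26).

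Genes of fatty acid and cholesterol synthesis rose in part. Of 19 genes of fatty acid synthesis 6 rose and 1 fell, with a median of 0.01. Fasn, fatty acid synthase, rose from 281 and 262 to 686 and 626 CPM (1.27 ± 0.08) and Scd1, the stearoyl desaturase, from 2081 and 2031 to 3374 and 3518 CPM (0.74 ± 0.08). Elovl6, an elongase, fell from 95.5 and 97.3 to 67.3 and 73.7 CPM (-0.45 ± 0.08), and without rosiglitazone 1 the number of falls was 2. Of 34 cholesterol genes 8 rose and 1 fell, with a median of 0.04, and 5 rose without rosiglitazone 1 or without control 2. The fall was in Insig2 (-0.26 ± 0.08), named after its value was seen, and it was called in none of the analyses that left out 1 library. The sterol exporters Abcg1 and Abca1, known targets of liver X receptors, rose by 2.00 ± 0.11 and 0.43 ± 0.07, with Abcg1 at 75.2 and 65.7 against 16.98 and 18.2 CPM. Insig1, which holds back sterol synthesis, rose by 0.52 ± 0.08.

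Detoxifying and redox genes rose more often than they fell. Of 48 tested, 13 rose and 2 fell, with a median of 0.08. Mgst3, a microsomal glutathione transferase, rose from 32.6 and 27.1 to 119.6 and 108 CPM (1.93 ± 0.11, adjusted p = 2.7e-11). Cbr3, a carbonyl reductase, rose by 1.92 ± 0.16, and Hmox1, haem oxygenase, by 0.55 ± 0.08. The falls were in Gstm2 (-0.88 ± 0.21) and Gsr (-0.38 ± 0.08), named after their values were seen, and the call of Gstm2 was lost without rosiglitazone 1 (adjusted p = 0.082). Txnip, which binds thioredoxin and limits glucose uptake, went from 760.4 and 617 to 1725 and 1530 CPM (1.24 ± 0.28, adjusted p = 0.044). Its call was lost without rosiglitazone 1 (adjusted p = 0.19), without rosiglitazone 2 (0.13), without control 1 (0.14) and without control 2 (0.21).

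Glycolysis showed no common direction. Of 27 genes of glycolysis and the pentose phosphate pathway, 5 rose (18.5%) and 4 fell (14.8%), with a median of -0.01. Over all genes tested 7.95% rose and 5.26% fell. Slc16a1, a lactate and pyruvate carrier, rose from 103 and 118 to 224 and 235 CPM (1.05 ± 0.08). Tkt and Taldo1, of the pentose phosphate pathway, rose by 0.50 ± 0.09 and 0.42 ± 0.08. The other rises were in Slc2a1 (0.40 ± 0.09) and Hk2 (0.38 ± 0.08), and the falls in Pgk1 (-0.44 ± 0.13), Eno2 (-0.39 ± 0.12), Eno1 (-0.34 ± 0.08) and Pkm (-0.31 ± 0.08). Hk2, Eno1 and Eno2 were named after their values were seen. None of the 4 falls was called without rosiglitazone 2 or without control 1, while 2 were called by DESeq2 or without rosiglitazone 1, and 1 without control 2. Of the rises, 3 were called without rosiglitazone 1 or without control 2. Ldha, lactate dehydrogenase A, stood at 606 and 598 against 685 and 699.6 CPM (-0.20 ± 0.08, adjusted p = 0.099).

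Retinoid genes moved in both directions. Of 19 tested, 6 rose (31.6%) and 5 fell (26.3%), against 7.95% and 5.26% over all genes tested, with a median of 0.04. Rarb, a retinoic acid receptor that is itself a retinoic acid target, fell from 12.8 and 11.8 to 4.33 and 3.99 CPM (-1.56 ± 0.20, adjusted p = 6.8e-06). Crabp2, which carries retinoic acid to its receptor, fell from 6.12 and 6.26 to 1.77 and 2.201 CPM (-1.64 ± 0.18, adjusted p = 7.8e-07). Both rosiglitazone libraries stood below both controls in each gene. Rarg and Rdh11 (-0.36 ± 0.11) fell by smaller amounts, and these were named after their values were seen. The number of falls was 3 without rosiglitazone 2, without control 1 or without control 2. In the other direction, Aldh1a1, which makes retinoic acid, rose from 0.974 and 0.876 to 3.804 and 3.58 CPM (1.99 ± 0.29). Cyp26b1, which degrades retinoic acid, rose by 1.69 ± 0.22, and Retsat, which saturates retinol, by 0.77 ± 0.11.

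Genes of cell division fell. Of 46 mitosis and spindle genes, 23 fell and none rose, and the log2 fold change was below 0 in all 46, with a median of -0.44 and a range from -0.78 to -0.09. Mki67, the proliferation marker Ki-67, stood at 91.5 and 100.9 CPM with rosiglitazone and 145 and 149.7 CPM in the controls (-0.62 ± 0.08, adjusted p = 8.4e-06). Ccnb2, a mitotic cyclin, fell from 20.5 and 20.7 to 11.7 and 12.2 CPM (-0.78 ± 0.11). Top2a, the topoisomerase of dividing cells, fell from 180.0 and 188 to 120.2 and 125 CPM (-0.59 ± 0.07), and Bub1b and Ect2, of the spindle checkpoint and of cytokinesis, by 0.66 ± 0.12 and 0.66 ± 0.11 on the log2 scale. Ccnb1, the other main mitotic cyclin, did not pass the test (-0.26 ± 0.18, adjusted p = 0.45), and its libraries overlap between the groups. The number that fell lay between 16 and 26 in the alternative analyses. Of 46 genes of DNA replication, 10 fell and none rose, with a median of -0.24, and 5 fell without rosiglitazone 2. Mcm3 and Mcm6, of the replicative helicase, changed by -0.62 ± 0.11 and -0.46 ± 0.09. Rrm2, a ribonucleotide reductase subunit, was not called (-0.16 ± 0.12, adjusted p = 0.49).

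Of 41 genes of G1 control and the p53 response, 2 rose (4.88%) and 3 fell (7.32%), shares near the 7.95% and 5.26% over all genes tested. Ccnd1, cyclin D1, stood at 489 and 497 against 615 and 595 CPM (-0.29 ± 0.08), Cdk4, its kinase, at 269.9 and 248 against 313 and 308 CPM (-0.26 ± 0.07), and Cdkn2c, an inhibitor of that kinase, at 131 and 139.9 against 159.5 and 174 CPM (-0.30 ± 0.08). None of these 3 falls was called without control 2, and 1 was called when any other single library was left out. Btg2, an antiproliferative gene, rose from 20.2 and 23.4 to 35.2 and 41.5 CPM (0.81 ± 0.12), and the other rise was in Ccnd2, with 1 count in the controls, whose call was lost by DESeq2 (adjusted p = 0.11), without rosiglitazone 1 (0.15), without control 1 (0.17) and without control 2 (0.05). The cell cycle inhibitor gene Cdkn1a was not called (0.34 ± 0.12, adjusted p = 0.077), and neither was Myc (0.09 ± 0.10, adjusted p = 0.67). Among 37 genes of Myc and ribosome biogenesis the median was 0.00, and the 1 rise, in Mycn (0.59 ± 0.17), was lost by DESeq2 (adjusted p = 0.11), without rosiglitazone 1 (0.071), without rosiglitazone 2 (0.12), without control 1 (0.17) and without control 2 (0.076).

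**Figure D4:**
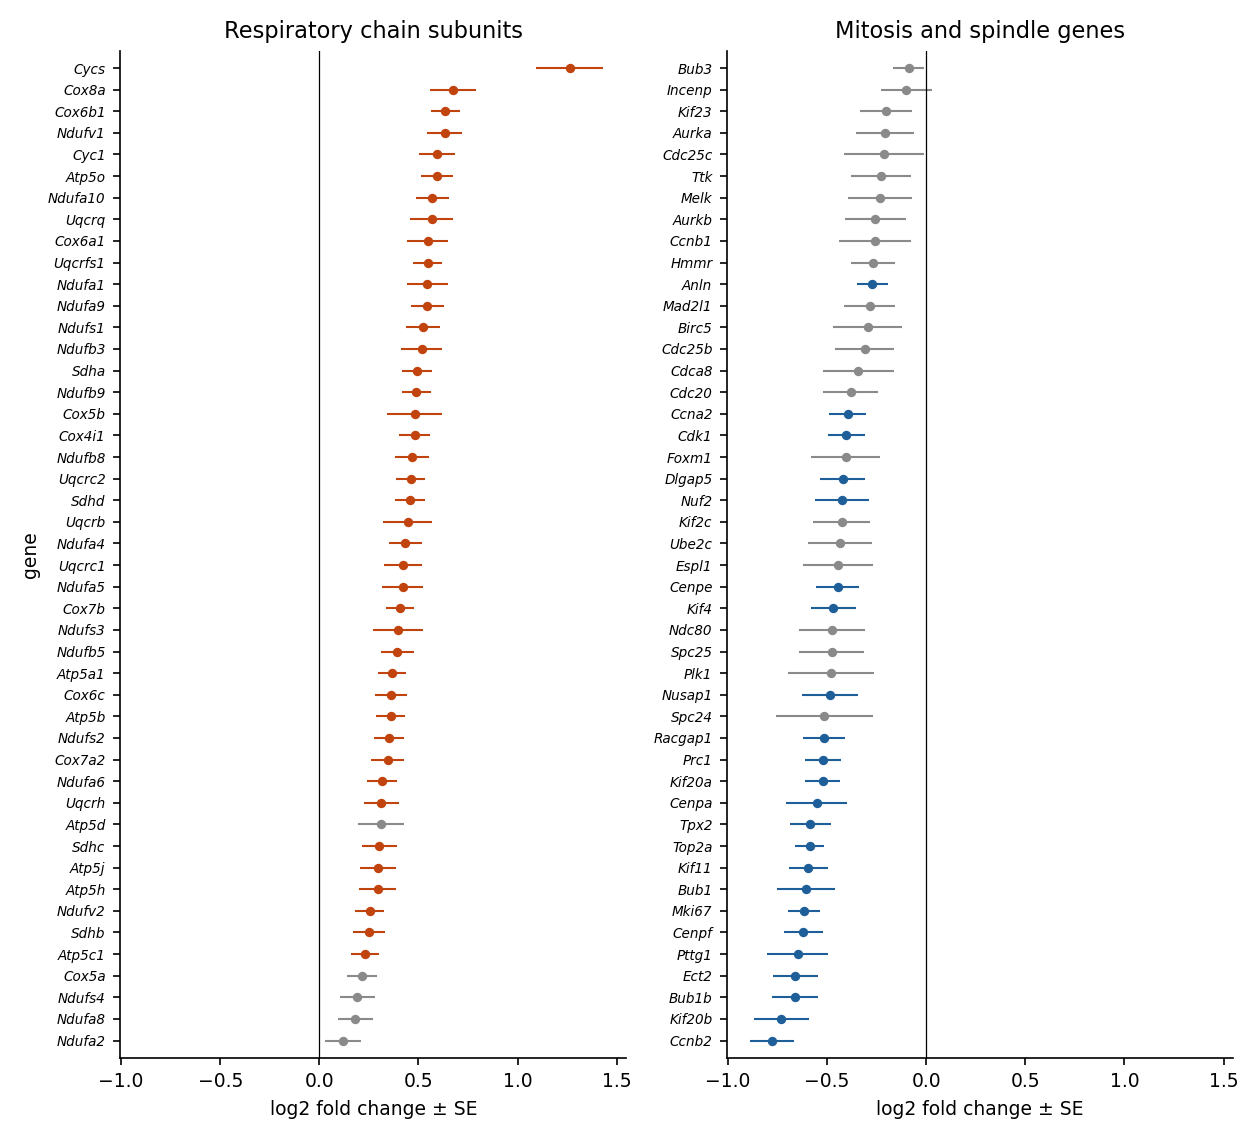
Log2 fold change with its standard error (x axis) of each tested gene (y axis) among the nuclear-encoded respiratory chain subunits (left) and the mitosis and spindle genes (right), red where higher, blue where lower and grey where not called. All 46 values on the left are above 0 and all 46 on the right are below 0, and the values run from -0.78 to 1.26.

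Of 32 Wnt genes tested, 4 rose and 8 fell, with a median of -0.04, and secreted inhibitors, ligands and receptors were all among the falls. Notum, which strips the lipid that Wnt proteins need, fell from 17.8 and 15.8 to 7.61 and 5.23 CPM (-1.38 ± 0.15, adjusted p = 1.3e-06). Sfrp2, a secreted Wnt-binding protein, fell from 76.0 and 73.9 to 47.4 and 46.5 CPM (-0.68 ± 0.10), Sfrp1, of the same family, by 0.53 ± 0.09 on the log2 scale, and the Wnt antagonist Dkk2 from 3.69 and 2.504 to 0.525 and 1.24 CPM (-1.80 ± 0.38). The other falls were in the ligands Wnt10a (-0.57 ± 0.14) and Wnt7b (-0.40 ± 0.09) and the receptors Lgr4 (-0.50 ± 0.09) and Fzd6 (-0.27 ± 0.07). The call of Fzd6 was lost without rosiglitazone 1 (adjusted p = 0.096), without rosiglitazone 2 (0.064), without control 1 (0.056) and without control 2 (0.12). The rises were in Fzd4 (0.91 ± 0.18), Fzd5 (0.61 ± 0.10), Fzd7 (0.45 ± 0.11) and Lrp6 (0.25 ± 0.07), which also encode Wnt receptors. Wnt10a, Wnt7b, Lgr4, Fzd6, Fzd7, Lrp6 and Sfrp1 were named after their values were seen, and 1 rise was called without rosiglitazone 1 and 2 without control 1 or without control 2. Axin2, a feedback target of the pathway, stood at 8.13 and 8.32 against 6.26 and 5.13 CPM (0.53 ± 0.18, adjusted p = 0.057). It passed the test without the count filter (adjusted p = 0.038) and with the 4 MTΔECad libraries fitted alone (0.040).

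Other signalling genes changed one by one. Mfng, a glycosyltransferase that modifies Notch, had 2 counts in the controls and stood at 8.001 and 7.22 CPM with rosiglitazone, and the Notch ligand Jag1 rose by 0.87 ± 0.12, whereas Notch3 fell from 19.98 and 14.8 to 8.59 and 9.15 CPM (-0.97 ± 0.18). Spry2, a feedback inhibitor of receptor tyrosine kinase signalling, rose from 10.4 and 11.02 to 25.1 and 23.1 CPM (1.17 ± 0.12), while Dusp6, another ERK feedback gene, was not called (-0.18 ± 0.11, adjusted p = 0.37). Btc, an EGF receptor ligand, fell by 0.65 ± 0.14 and Ephb6, an ephrin receptor, by 0.54 ± 0.08 on the log2 scale. Of 30 BMP genes tested, 1 rose (3.33%) and 3 fell (10.0%), against 7.95% and 5.26% over all genes tested. The falls were fewer without rosiglitazone 1, and 4 without the count filter. The BMP target Id1 was not called (-0.04 ± 0.13, adjusted p = 0.92), whereas Id2, of the same list, fell (-0.37 ± 0.09, adjusted p = 0.0091). Gdf5, a BMP family ligand, stood at 2.43 and 1.93 CPM with 3 counts in the controls. Of 27 TGF-β genes 3 rose (11.1%) and 5 fell (18.5%). The falls were fewer without either rosiglitazone library or without control 1, and 8 without the count filter. The rises were 1 without either rosiglitazone library. Among the falls Ccn2, a matricellular target, fell from 337 and 379 to 267 and 281 CPM (-0.39 ± 0.08), and Tgfb1 itself was not called (-0.08 ± 0.17).

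Matrix genes changed in both directions. Of 29 collagen genes 4 rose and 4 fell (13.8% each, against 7.95% and 5.26% over all genes tested), with a median of 0.02. Col3a1, a fibrillar collagen, rose from 1791 and 1753 to 2875 and 2707 CPM (0.66 ± 0.10, adjusted p = 7.4e-05). Col27a1 rose by 1.76 ± 0.26, Col23a1 by 0.74 ± 0.12 and Col5a1 by 0.25 ± 0.08. Falls were in Col15a1 (-0.96 ± 0.21), Col7a1 (-0.74 ± 0.13), Col8a1 (-0.48 ± 0.08) and Col4a5 (-0.45 ± 0.08). Col5a1 and Col8a1 were named after their values were seen, and the call of Col15a1 was lost without rosiglitazone 2 (adjusted p = 0.051) and without control 1 (0.083) and that of Col5a1 without rosiglitazone 1 (adjusted p = 0.22), without rosiglitazone 2 (0.084) and without control 2 (0.42). Among matrix glycoproteins, Thbs2, thrombospondin 2, fell from 302 and 306 to 122 and 137 CPM (-1.24 ± 0.08, adjusted p = 4.4e-10) and Fbln5, an elastic fibre protein, rose from 4.25 and 5.13 to 12 and 14.8 CPM (1.51 ± 0.17). Fn1, fibronectin, stood at 4685 and 4693 CPM with rosiglitazone and 9767 and 7457 CPM in the controls, with no overlap, yet it did not pass the test (-0.88 ± 0.27, adjusted p = 0.11). It did pass with the 4 MTΔECad libraries fitted alone (adjusted p = 3.5e-06), by DESeq2 (0.023) and without the count filter (5.1e-32). Over 47 matrix glycoprotein genes 9 rose and 8 fell, and 15 fell without the count filter; the number that rose was 4 without control 1 and 5 by DESeq2, without rosiglitazone 1 or without control 2.

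Matrix proteases and adhesion genes also divided. Adam12, a membrane metalloprotease, rose from 5.29 and 6.26 to 48.99 and 46.8 CPM (3.05 ± 0.14, adjusted p = 6.6e-13), and Mmp11, or stromelysin 3, from 70.99 and 72.1 to 139.9 and 131 CPM (0.92 ± 0.08). Among 34 genes of proteases and their inhibitors there were 5 rises and 9 falls, and there were 5 falls without rosiglitazone 2 or without control 1. Serpine2, a protease inhibitor, fell from 1115 and 1161 to 795 and 813 CPM (-0.50 ± 0.07). Lama4, a laminin chain found around fat cells, rose from 115 and 105 to 263 and 227 CPM (1.16 ± 0.09), and Itgb2, the integrin chain best known from leukocytes, fell from 11.2 and 10.9 to 3.74 and 3.78 CPM (-1.56 ± 0.17). Among guidance and contact genes, Alcam rose by 1.77 ± 0.11, Sema3c by 1.08 ± 0.09 and the semaphorin receptor genes Plxna2 and Nrp1 by 1.11 ± 0.11 and 0.72 ± 0.08, while L1cam fell from 21.9 and 17.3 to 11.3 and 10.04 CPM (-0.87 ± 0.15).

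Among mesenchymal factors 3 fell, and some keratin genes rose. Of 24 mesenchymal factors none rose and 3 fell (12.5%, against 5.26% over all genes tested). The falls were in Snai1 (-0.51 ± 0.15), Tcf4 (-0.29 ± 0.08) and S100a4 (-0.27 ± 0.08). No fall was called without rosiglitazone 1, without control 1 or without control 2, and 5 were called without the count filter or with the 4 MTΔECad libraries fitted alone. Of 24 epithelial genes tested, 8 rose (33.3%, against 7.95% over all genes tested) and 2 fell (8.33%), with a median of 0.23. Krt14, a basal keratin, rose from 10.1 and 8.64 to 68.5 and 57.4 CPM (2.75 ± 0.12, adjusted p = 7.2e-13), and Krt8, a luminal keratin, from 195 and 204 to 285 and 264 CPM (0.46 ± 0.08). Krt15 had 8 counts in the controls and stood at 5.86 (95% interval 2.74 to 14.4) times their level. Epcam, an epithelial adhesion gene, had 1 count in the controls and 0.525 and 0.344 CPM with rosiglitazone, and its call was lost without rosiglitazone 1 (adjusted p = 0.21), without rosiglitazone 2 (0.058), without control 1 (0.075) and without control 2 (0.27). The number of rises was 4 without control 1 and 5 without control 2 or rosiglitazone 1. The falls were in the desmosomal cadherin Dsc2 (-0.56 ± 0.14) and in Krt7 (-0.48 ± 0.08), the latter named after its value was seen, and 1 fall was called by DESeq2, without rosiglitazone 1 or without control 1. Tagln, a smooth muscle actin-binding protein, fell from 174 and 167 to 104 and 102 CPM (-0.72 ± 0.09), while Acta2, smooth muscle actin, was not called (-0.18 ± 0.23, adjusted p = 0.74).

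Of 18 bone and cartilage genes tested, 3 fell (16.7%) and 2 rose (11.1%), with a median of -0.01. Over all genes tested 5.26% fell and 7.95% rose. Alpl, the alkaline phosphatase of mineralising cells, fell from 28.5 and 26.9 to 11.2 and 11 CPM (-1.32 ± 0.13, adjusted p = 2.3e-07). Spp1, osteopontin, fell from 11349 and 12330 to 8036 and 8919 CPM (-0.48 ± 0.09), and Mgp, matrix Gla protein, from 796 and 818 to 596 and 613 CPM (-0.42 ± 0.08). Sox6 and Pthlh were the 2 rises. Sox6, a chondrocyte factor with 0 counts in the controls, was at least 4.39-fold higher, and the call of Pthlh was lost without rosiglitazone 2 (adjusted p = 0.06) and without control 1 (0.16). Runx2, the osteoblast regulator, was not called (-0.24 ± 0.14, adjusted p = 0.36).

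The share of immune genes that fell differed between the lists. Of 18 antigen presentation genes 5 fell (27.8%, against 5.26% over all genes tested) and none rose, with a median of -0.28. H2-K1, a classical class I molecule, fell from 161 and 162 to 115 and 111 CPM (-0.51 ± 0.08), and Erap1, a peptide-trimming enzyme, by 0.39 ± 0.08 on the log2 scale. The others were H2-M3 (-0.60 ± 0.16), H2-T22 (-0.53 ± 0.13) and H2-D1 (-0.29 ± 0.09), and reads may be shared among such class I genes. The number of falls was 2 without control 2, and 3 by DESeq2, without rosiglitazone 2 or without control 1. Among 39 chemokine and interleukin genes, 3 rose (7.69%) and 6 fell (15.4%), with a median of -0.13. The number that rose was 6 without the count filter or with the 4 MTΔECad libraries fitted alone. Lcn2, an iron-binding lipocalin of inflammation, fell from 28.3 and 25.5 to 13.3 and 11.6 CPM (-1.11 ± 0.12, adjusted p = 7.8e-07). Cxcl5, a neutrophil chemokine, fell from 82.1 and 95.8 to 45.8 and 55.1 CPM (-0.82 ± 0.11), whereas Ccl9 rose from 355 and 384 to 536 and 609 CPM (0.63 ± 0.08). The other rises, in Ccl7 (0.85 ± 0.22) and Il17re, were each lost in some alternative, for Ccl7 by DESeq2 (adjusted p = 0.089), without rosiglitazone 1 (0.11) and without control 1 (0.1) and for Il17re without control 2 (adjusted p = 0.051). Of 35 interferon response genes 1 rose (2.86%) and 2 fell (5.71%), a share of falls near the 5.26% over all genes tested. Parp14 fell (-0.47 ± 0.10), and the fall of Mx1 (-1.76 ± 0.49) was lost without rosiglitazone 1 (adjusted p = 0.31), without control 1 (0.071) and without control 2 (0.12).

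Of 33 genes of the amino acid response and endoplasmic reticulum stress, 6 rose (18.2%, against 7.95% over all genes tested) and 1 fell, and 3 rose without control 1. The fall was in Calr, a chaperone of that compartment (-0.26 ± 0.08), named after its value was seen, and its call was lost without rosiglitazone 1 (adjusted p = 0.061), without rosiglitazone 2 (0.16), without control 1 (0.17) and without control 2 (0.094). Dnajb9, a chaperone partner of the endoplasmic reticulum, rose from 32.3 and 32.2 to 68.1 and 75.1 CPM (1.15 ± 0.10). The chaperone gene Hspa5 (-0.18 ± 0.07) and the stress factor gene Ddit3 (0.16 ± 0.16) did not pass the test. Among genes of cell death, Aifm2, which guards lipids against oxidation, rose from 43.7 and 46.2 to 91.7 and 92.4 CPM (1.03 ± 0.09) and Dapk1, a death-associated kinase, by 1.56 ± 0.14. Bnip3, a mitophagy receptor, rose by 0.78 ± 0.10. Malat1 and Rpph1, RNAs without a usual poly-A tail, were not called (0.15 ± 0.10 and -0.12 ± 0.10), and the nuclear RNA Neat1 rose by 0.56 ± 0.08.

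Most called genes lay outside the lipid and oxidation lists. These lists do not cover all of lipid metabolism, since cholesterol and sphingolipid genes, among others, were listed apart. The lipid and oxidation lists together held 281 tested genes, of which 155 (55.2%) rose and 10 fell, and these made up 14.8% of all genes that rose. In none of the 54 lists were 761 of the genes that rose and 542 of those that fell. Among the largest rises in this remainder, Anxa8 (chr14:34085979-34100571), a membrane-binding annexin, went from 1.601 and 1.25 to 178 and 166 CPM (6.91 ± 0.14, adjusted p = 1.6e-18). Trarg1, a partner of GLUT4 vesicles, went from 2.09 and 1.94 to 144 and 116 CPM (6.01 ± 0.17). Mest (chr6:30733506-30748466), an imprinted gene raised in expanding fat, stood at 43.4 and 37.8 CPM with 2 counts in the controls, or 616 (95% interval 170.2 to 5094) times their level. It overlaps Copg2 in the annotation, so reads may be divided between them. Slco2b1, an organic anion transporter, and Adcy5, an adenylyl cyclase, had 0 counts in both controls. Slco2b1 stood at 16.3 and 12.8 CPM, at least 73.4-fold higher, and Adcy5 at 10.6 and 8.66 CPM, at least 48.6-fold higher. Of all genes that rose, 20 had 0 counts in both controls. Chrna2, a nicotinic receptor subunit, Tppp, a tubulin-binding protein, and Slc36a2, an amino acid transporter, had 2 or 3 counts in the controls. They stood at 32.2 and 24.3, 21.5 and 20.1 and 13.1 and 9.903 CPM with rosiglitazone. C5ar2, a receptor of complement fragment C5a, rose by 5.51 ± 0.32, the small GTPase gene Rasl12 by 5.14 ± 0.27, and Adig and Lgals12, both known from fat cells, by 6.01 ± 0.27 and 5.55 ± 0.32.

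The falls outside the lists were smaller. Inmt (chr6:55170627-55174990), which methylates small amines, fell from 324 and 363 to 96.3 and 112 CPM (-1.72 ± 0.12, adjusted p = 2.3e-07). Fbln7, a matrix fibulin, fell from 73.7 and 79.0 to 29.97 and 28.1 CPM (-1.40 ± 0.10), and Tmem45a from 7.03 and 7.32 to 2.56 and 1.72 CPM (-1.74 ± 0.25). Slpi, a secreted protease inhibitor, stood at 233 and 250.5 CPM with rosiglitazone and 488 and 486 CPM in the controls (-1.01 ± 0.08, adjusted p = 5.9e-09). Chil1, a secreted chitinase-like protein, fell from 55.9 and 54.3 to 21.97 and 24.7 CPM (-1.24 ± 0.10), and the neighbouring paralogs Sectm1a and Sectm1b, which may share reads, by 1.33 ± 0.10 and 1.22 ± 0.14 on the log2 scale. Piezo2, a mechanosensitive channel, fell from 20.1 and 13.5 to 8.59 and 7.98 CPM (-1.01 ± 0.18). In each of these genes both rosiglitazone libraries stood below both controls.

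By CPM rather than fold, other genes led. Among called genes Scd1 gained the most, followed by Fabp4 and Col3a1. Plin4 rose from 755 and 718 to 1806 and 1635 CPM, Tkt from 1348 and 1296 to 1989 and 1748 CPM, and Pank3, of coenzyme A synthesis, from 399 and 433 to 920.4 and 1001 CPM (1.21 ± 0.08). Idh1, the cytosolic isocitrate dehydrogenase that supplies NADPH, rose from 525 and 547 to 898 and 952 CPM (0.79 ± 0.08). Sh3pxd2a, a scaffold of podosomes, rose from 219.9 and 191 to 632 and 559.6 CPM (1.54 ± 0.10). Spp1 lost the most among called genes, and F13a1, the clotting transglutaminase chain, fell from 2649 and 2701 to 1578 and 1729 CPM (-0.69 ± 0.08). Prss23, a serine protease, fell from 2943 and 3018 to 2192 and 2256 CPM (-0.42 ± 0.07), Aebp1, a collagen-binding matrix protein that also represses adipogenic genes, from 1889 and 1644 to 1164 and 1082 CPM (-0.65 ± 0.09), and Sdc4, a heparan sulphate proteoglycan, from 2278 and 2391 to 1751 and 1656 CPM (-0.45 ± 0.08).

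Rosiglitazone in MTΔECad cells was compared with BMP2 plus the MEK inhibitor in Py2T-LT cells, after which Fabp4 also rose. The comparisons share no library, but line and treatment differ together and cannot be told apart. In Py2T-LT cells 2511 genes (19.1%) rose and 2553 (19.4%) fell. Of the genes that rose with rosiglitazone, 424 (40.5%) rose there too, which is 16.9% of the Py2T-LT rises, and 146 (14%) fell. Of those that fell with rosiglitazone, 293 (42.4%) fell there, which is 11.5% of the Py2T-LT falls, and 164 (23.7%) rose. The difference between the effects passed the test for 3265 genes (24.8% of those tested), and for 310 genes both effects and their difference were called with opposite signs.

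Fabp4 rose in both, whereas Pparg rose in Py2T-LT cells and was not called with rosiglitazone. Fabp4 rose by 6.02 ± 0.16 with rosiglitazone and 6.05 ± 0.19 in Py2T-LT cells, with no difference called (-0.03 ± 0.24, adjusted p = 0.98). Pparg changed by -0.12 ± 0.09 with rosiglitazone and rose by 2.82 ± 0.14 in Py2T-LT cells, and these effects differed (-2.94 ± 0.17, adjusted p = 3.5e-11). In the respiratory chain list every called difference had the same sign. None of its 46 members rose and 5 fell in Py2T-LT cells, and the difference was called in 32 (69.6%), each with the rosiglitazone effect above. Acadm rose by 2.05 ± 0.08 with rosiglitazone and 0.43 ± 0.07 in Py2T-LT cells (difference 1.62 ± 0.10, adjusted p = 2.3e-10). Mitosis genes fell in both, in 23 and in 46 of 46, and the difference was called in 41, each time with the larger fall in Py2T-LT cells. For Mki67 the values were -0.62 ± 0.08 and -1.50 ± 0.08.

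Several matrix, bone and keratin genes moved in opposite directions. Col3a1 rose by 0.66 ± 0.10 with rosiglitazone and changed by -3.10 ± 0.33 in Py2T-LT cells (adjusted p of the difference 8.9e-08). Krt8 gave 0.46 ± 0.08 and -2.35 ± 0.09 (6.3e-13), and Alpl gave -1.32 ± 0.13 and 2.58 ± 0.13 (2.7e-12). Chil1 gave -1.24 ± 0.10 and 5.14 ± 0.13 (1.6e-16). Among genes called in opposite directions, Cyp2f2, a cytochrome P450 of airway cells, had one of the largest differences: it rose with rosiglitazone from 1.88 and 1.19 to 25.5 and 19.3 CPM (3.88 ± 0.20) and changed by -5.05 ± 0.18 in Py2T-LT cells. Krt14, by contrast, rose in both (2.75 ± 0.12 and 3.27 ± 0.12, adjusted p of the difference 0.038).

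**Figure D5:**
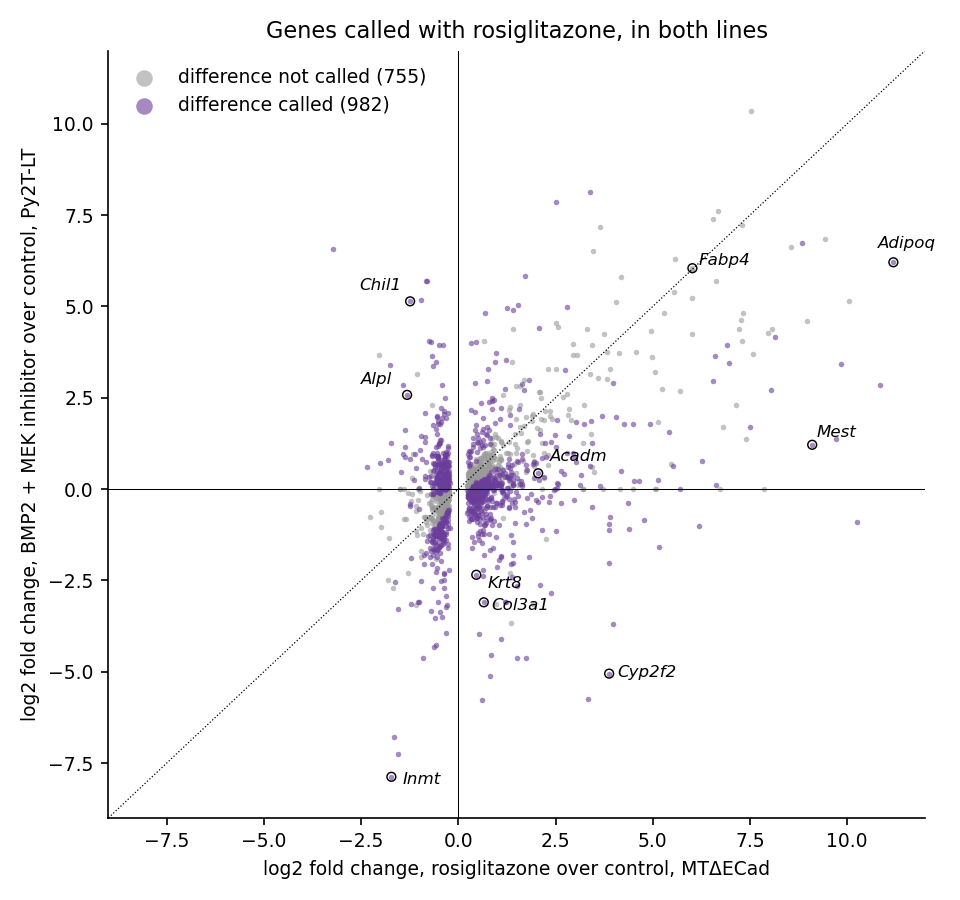
Log2 fold change of the 1737 genes called with rosiglitazone in MTΔECad cells (x axis) against their log2 fold change with BMP2 plus the MEK inhibitor in Py2T-LT cells (y axis), purple where the difference was called (982 genes) and grey where it was not (755); the dotted line marks equal values. Fabp4 lies on the line, Acadm lies at 2.05 on the x axis and 0.43 on the y axis, and Cyp2f2, Col3a1, Krt8, Alpl and Chil1 lie in the quadrants of opposite change.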

How the data were processed

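The series deposited 1 table of counts per gene for 10 libraries. Per the submitters' processing notes, reads were aligned with STAR to mm10. For counting, the tool, strand setting and annotation were not given in the sources used here. The labels' protocols name total RNA from 2 independent experiments, TruSeq Stranded Total RNA libraries and an Illumina HiSeq sequencer. Of 18103 rows, 18057 identifiers matched RefSeq symbols and 3 GENCODE M21; 43, with 0.763% of counts, did not. From the deposited counts, edgeR 4.0.16 (R 4.3.3, limma 3.58.1) fitted 5 groups of 2 libraries with TMM scaling, filterByExpr and robust quasi-likelihood dispersions (5 residual degrees of freedom). Calls used a Benjamini-Hochberg adjusted p of 0.05 over 13149 genes. Fold changes are log2 values ± SE. The fit was tested on simulated data. Genes at 0 counts in the controls were bounded with a floor of 3 counts per library; floors and intervals cover counting error only.

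Named genes were the 20 largest rises and falls of at least 5 CPM, over all genes and outside the lists, up to 5 per list with fixed anchor genes, the 15 largest CPM changes each way, and the 5 largest opposite effects; some of these are not reported here. The comparison, the 54 lists and the rules were chosen with earlier results of these data known. The alternatives were RLE scaling, DESeq2 1.42.0, no count filter, the compared libraries alone, a replicate block and leaving out each library.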

Additional observations from a re-analysis of the deposited data

How the results depend on the processing

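With 2 libraries a group, the numbers of called genes depended on single libraries. Leaving out each library in turn gave 759 to 875 higher genes and 353 to 463 lower genes, 299 to 328 higher and 36 to 58 lower by more than 1 on the log2 scale, and 2601 to 3016 genes whose effect differed from that in Py2T-LT cells. DESeq2 gave 879 higher and 529 lower genes, and 31 lower by more than 1. RLE scaling, no count filter and the compared libraries alone gave 1055, 1153 and 1201 higher genes and 673, 881 and 706 lower genes. With the replicate block there were 1073 higher and 760 lower genes, and 1 lower gene each among lipid droplet genes and adipogenic factors, where there was none without it. The replicate numbers give no shared source: deviations of same-numbered libraries correlated between -0.106 and 0.100, so pairing was not assumed. Small falls are the calls this depth and n leave least certain. Id2 is left out of the following count. Of 213 called genes named in the text, 171 passed the test in all 9 alternatives, 42 lost their call in at least 1, and none changed direction.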

Other observations

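Of 48 genes whose symbols begin with Mrpl, subunits of the large mitochondrial ribosome, 6 (12.5%) rose and none fell, with a median log2 fold change of 0.17, against 7.95% higher and 5.26% lower over all genes tested. Of 28 Mrps genes, of the small subunit, 3 (10.7%) rose and none fell, also with a median of 0.17, and these shares of rises are not far from that background. These groups were formed from symbols after the data were seen and carry no test. Of 23 histone genes, 5 fell and none rose, with a median of -0.19, and 3 fell when rosiglitazone 2, control 1 or control 2 was left out.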
